A study of Mus musculus with 8 samples.

Results

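Collagen VI and the fibril-associated collagens were followed in mouse ovarian cancer cells with and without an active Notch3. The 9 genes were Col6a1, Col6a2, Col6a3, Col6a4, Col6a5, Col7a1, Col12a1, Col14a1 and Col16a1. They were chosen by symbol from the 23284 symbols counted in each library, of which 43 are collagen genes. All but Col7a1, which encodes the anchoring-fibril collagen VII, belong to these collagen families. ID8 IP2 is a line derived from mouse ovarian surface epithelium, passaged in mice as a model of disseminated ovarian cancer. Its cells were infected with a pCCL lentivirus that carried either codons 1664 to 2318 of Notch3, its intracellular domain with an HA tag, ahead of an IRES-GFP (Notch3IC) or no insert (Control). Both groups also carried a luciferase-mCherry lentivirus and were grown in DMEM with 10% serum. There were 4 matched Control and Notch3IC pairs, Sets 1 to 4, 8 libraries in all. All pairs came from 1 parental line, so the p-values measure the spread between infected lines and not between animals. By the study's account ID8 cells lack the mutations typical of the human disease. The study also reports a likely mycoplasma contamination, found by later tests, which would cover every line and the full length of the work.

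Totals ran from 15524262 to 28208072 counts per library. Values are normalized counts unless another scale is named, which are counts scaled by library size with TMM factors to a mean library of 23336153 counts. The inserted gene was checked first. In Control, Notch3 had 38.7, 40.6, 70.8 and 42.0 normalized counts in Sets 1 to 4. In Notch3IC it had 4322, 467, 9219.8 and 5842. Every Notch3IC library was above every Control library, and that of Set 2 was the lowest of the 4. The Notch target genes Hey1, Heyl and Nrarp were called higher too (edgeR adjusted p = 0.0169 for each). Heyl had at most 1.98 normalized counts in a Control library and passed the expression filter through its Notch3IC libraries. Both Set 1 libraries stood apart from the others of their group, with a chi-square per gene of 112 to 130 against other sets, where pairs among Sets 2, 3 and 4 had 13.4 to 87.1. Results are therefore also given without Set 1 where that changed them.

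Collagen VI is a microfibrillar collagen that links cells to the interstitial matrix. Its alpha1 and alpha2 chains assemble with alpha3 as the usual partner, and the alpha4, alpha5 and alpha6 chains resemble alpha3 and can take its place. Collagens XII, XIV and XVI carry interrupted triple helices and lie on the surface of fibrils of collagen I and related types, while collagen VII builds the anchoring fibrils that fasten epithelial basement membranes to the stroma below.

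The genes of the 2 common chains, Col6a1 and Col6a2, are neighbours. In GRCm38 Col6a2 lies at chr10:76595762-76623630 and Col6a1 at chr10:76708792-76726168, both on the minus strand, 85161 bases apart with no coding gene starting between them. Col6a3 lies alone at chr1:90765923-90843971 on the minus strand. The sequence just before each start is shown for these 3 chains because their products meet in 1 molecule. The stretches are from RefSeq on GRCm38.p6, 5' to 3' on the gene's own strand, and end at the start of the annotated gene. Col6a1 spans chr10:76726169-76726294, Col6a2 chr10:76623631-76623880 and Col6a3 chr1:90843972-90844221. Capitals mark a GC box, GGGCGG on either strand.
Col6a1: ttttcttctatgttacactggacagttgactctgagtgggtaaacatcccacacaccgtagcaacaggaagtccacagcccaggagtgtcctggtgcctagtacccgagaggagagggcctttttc
Col6a2: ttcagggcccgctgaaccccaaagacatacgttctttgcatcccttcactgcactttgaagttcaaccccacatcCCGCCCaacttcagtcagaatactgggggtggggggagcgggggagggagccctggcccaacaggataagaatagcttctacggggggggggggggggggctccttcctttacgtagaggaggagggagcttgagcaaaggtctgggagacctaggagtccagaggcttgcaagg
Col6a3: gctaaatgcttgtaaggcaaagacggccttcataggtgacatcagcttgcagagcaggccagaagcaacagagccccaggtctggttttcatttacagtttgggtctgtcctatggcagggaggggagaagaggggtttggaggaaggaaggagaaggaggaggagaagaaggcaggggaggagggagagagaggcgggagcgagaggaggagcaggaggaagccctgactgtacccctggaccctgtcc

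RefSeq windows of 250 bases before a start were matched for 7 of the 9 genes, and no window was matched for Col12a1 or Col14a1. Among them 5 genes held a GC box, Col6a2, Col6a4, Col6a5, Col7a1 and Col16a1, and 32.7% of all 32817 promoters of this length did. The letters TGGGAA on either strand, the core bound by the Notch partner RBPJ, occurred in the window of Col6a4 at 2 places and in no other of the 7, against 21.6% of all promoters. TATAAA on either strand occurred in none of the 7, against 12.4% of all. These matches describe the letters of these windows alone.

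Of the 9 genes, 8 had enough counts to be tested, and Col6a4 did not. Col6a3 and Col14a1 were called higher in Notch3IC and none was called lower. Calls needed an adjusted p under 0.1, by edgeR's quasi-likelihood test with Benjamini-Hochberg adjustment over the 12430 genes tested, with a log2 fold change of at least 1. Among all genes tested 3.40% were called higher and 0.740% lower. Col14a1 passed the expression filter through its Notch3IC libraries, since its Control libraries had at most 8 counts, so the count over tested genes is a description and not support. With the set as a block, Col6a1 and Col6a2 were called as well, which makes 4 of 8 higher and 0 lower, where 5.19% of all genes were called higher and 2.53% lower. The 8 fitted changes were all positive with a median log2 fold change of 1.23, beside 6020 positive of 12430 and a median of -0.01 over all genes tested. Col6a5, like Col14a1, passed the filter only with its Notch3IC libraries, so these values are a description as well.

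**Figure D1:**
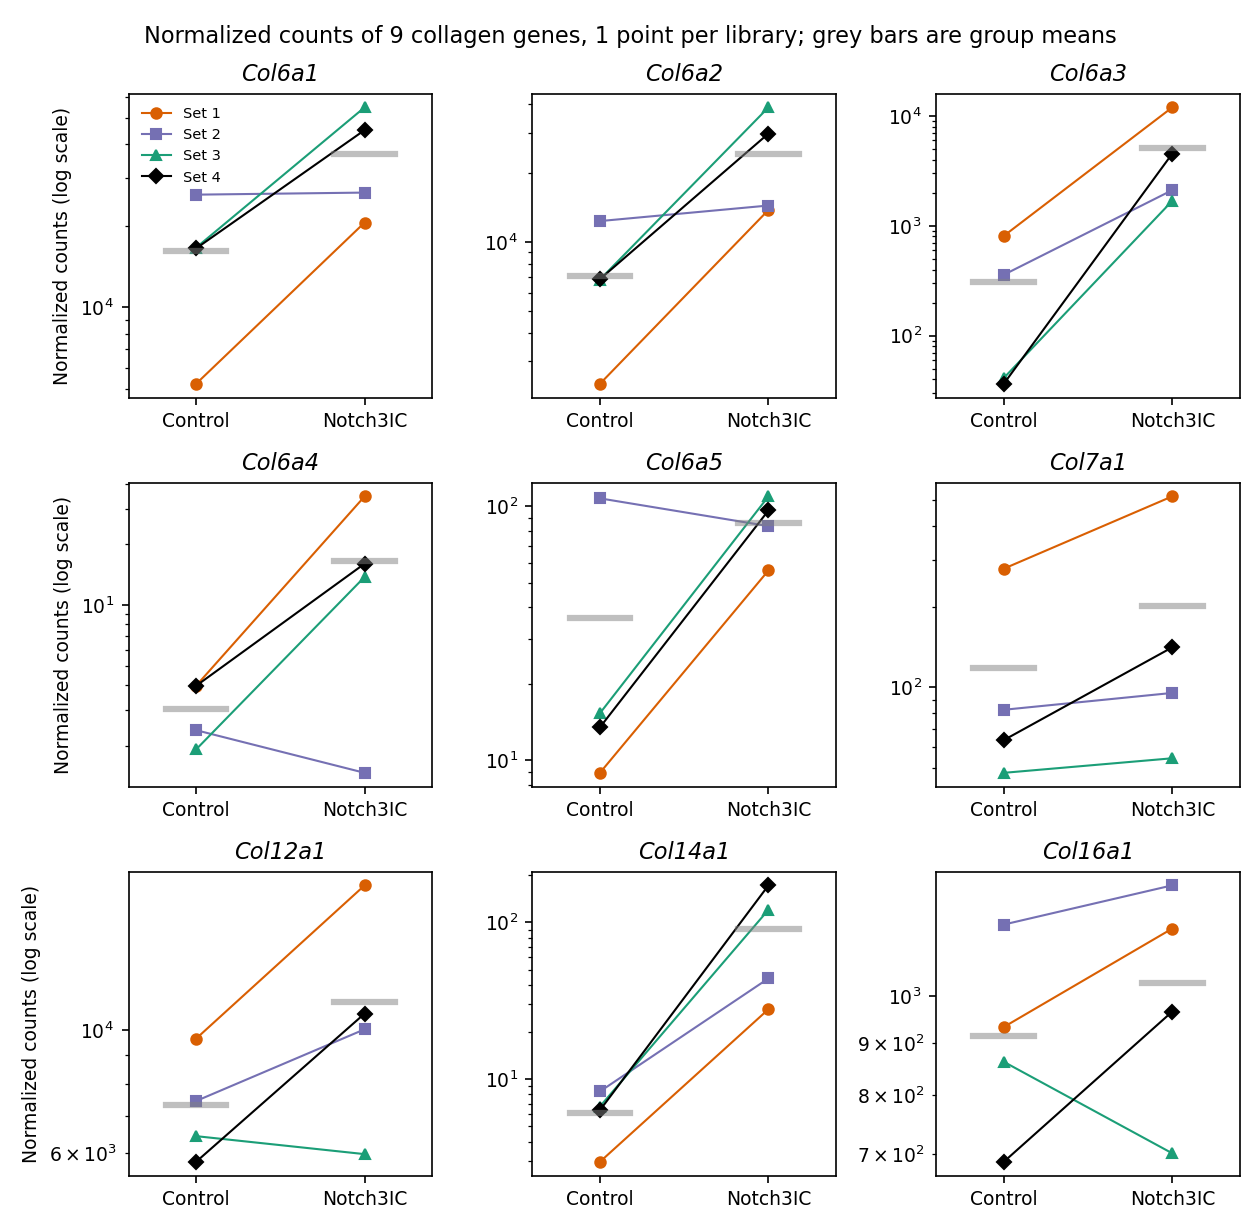
Normalized counts (log axis, a separate scale in each panel) of the 9 genes in Control and Notch3IC, with 1 point per library, a line joining the libraries of a set and a grey bar at each group mean. Col6a2, Col6a3 and Col14a1 are the tested genes whose groups do not overlap, and Set 2 is nearly flat for Col6a1 and Col6a2.

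The common chains were abundant in every library and higher in Notch3IC in all 4 sets, with little change in Set 2. Col6a1, which encodes the alpha1 chain, had 5225, 26085, 16619 and 16514 normalized counts in Control Sets 1 to 4 and 20586, 26548, 54794 and 45164 in Notch3IC. The groups overlapped, because Control Set 2 was above Notch3IC Set 1, and the Control library of Set 1 was the lowest of all. Its mean went from 16111 ± 8532 to 36773 ± 15934 normalized counts (SD, n = 4 libraries each). The log2 fold change was 1.19 (standard error 0.48, edgeR adjusted p = 0.232), and Col6a1 was not called with condition alone. With the set as a block it was 1.31 (standard error 0.33, edgeR adjusted p = 0.0584), a call. Within Sets 1 to 4 the log2 ratios were 1.98, 0.03, 1.72 and 1.45.

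Col6a2, which encodes the alpha2 chain, had 2395, 12323, 6837 and 6867 normalized counts in Control and 13788, 14412, 38725 and 29745 in Notch3IC. The groups did not overlap, though Control Set 2 and Notch3IC Set 1 were close. The log2 ratios of 2.53, 0.23, 2.50 and 2.11 in Sets 1 to 4 were each larger than those of Col6a1. The fitted log2 fold change of 1.77 had a 95% interval from 0.59 to 2.95 and did not pass with condition alone (edgeR adjusted p = 0.111), and 1.87 (standard error 0.43) passed with the block (edgeR adjusted p = 0.0467). It also passed with condition alone without both Set 1 libraries (1.67, edgeR adjusted p = 0.0908), without both of Set 2 (0.0510) or either of them (0.0836 and 0.0648), and without the expression filter (0.0975). Across the 8 libraries, which share the condition and the library scaling, the log2 levels of Col6a1 and Col6a2 had a Pearson r of 0.98.

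Col6a3, which encodes the long alpha3 chain that completes the usual collagen VI molecule, rose in every set. The Control libraries had 808, 358, 41.2 and 36.5 normalized counts and the Notch3IC libraries 11957, 2110.0, 1688 and 4534. All Notch3IC libraries were above all Control libraries, and in both groups Set 1 was the highest, followed in Control by Set 2. The mean went from 311 ± 364 to 5072 ± 4758 normalized counts, a ratio of means of 16.3. This was a log2 fold change of 4.03 (standard error 1.12, 95% interval 1.48 to 6.59, edgeR adjusted p = 0.0964). Without the Notch3IC library of Set 1 it was 3.19, and without the Control library of Set 1 it was 5.16. The ratio was smallest in Set 2, at 2.56 on the log2 scale, and 3.89, 5.34 and 6.94 in Sets 1, 3 and 4. The call was lost without the Notch3IC library of Set 1 (edgeR adjusted p = 0.159), 3 (0.145) or 4 (0.211), without the Control library of Set 2 (0.166), 3 (0.198) or 4 (0.209), and without Set 2 (0.136), 3 (0.323) or 4 (0.465) as a whole. The fits without Set 3 and without Set 4 called 1 of 12418 and 0 of 12378 genes in all. With the block the adjusted p was 0.0293 and the log2 fold change 4.44 (standard error 0.73).

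Of the 12430 genes tested, 7.08% had all 4 Notch3IC libraries above all 4 Control libraries and 3.75% had them all below. Among the 8 tested collagen genes the first pattern was seen in 3, Col6a2, Col6a3 and Col14a1, and the second in none. Col14a1 passed the filter through its Notch3IC libraries, so its place in this count is a description and not support.

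The ratios between chains were compared next, and none of the 3 had an adjusted p under 0.05, the limit used for these single permutation tests. A ratio of 2 genes within a library is free of the scaling between libraries, so it was tested over libraries. The log2 ratio of Col6a2 to Col6a1 counts was -1.13, -1.08, -1.28 and -1.27 in Control Sets 1 to 4 and -0.58, -0.88, -0.50 and -0.60 in Notch3IC. Every Notch3IC library had more Col6a2 per Col6a1 than every Control library. The difference of 0.55 gave p = 0.0286 in an exact two-sided permutation test, the smallest that 4 against 4 allows, and 0.0857 after adjustment over the 3 pairs of chains, above 0.05. For Col6a3 to Col6a1 the mean log2 ratio was -6.58 ± 2.86 in Control and -3.19 ± 1.77 in Notch3IC (SD, n = 4). The difference of 3.39 was positive within all 4 sets, but Control Set 1, at -2.69, was above 3 of the Notch3IC libraries (exact permutation p = 0.114, adjusted 0.171). Without that library the differences were 0.57 for Col6a2 to Col6a1 and 4.68 for Col6a3 to Col6a1, both with an adjusted exact permutation p of 0.0429. With any other single library left out the adjusted p was 0.0857 to 0.171 for Col6a2 to Col6a1 and 0.114 to 0.3 for Col6a3 to Col6a1. Without both Set 1 libraries it was 0.1 for each, the smallest that 3 against 3 allows. For Col6a3 to Col6a2 the difference was 2.84 (exact permutation p = 0.171, adjusted 0.171).

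**Figure D2:**
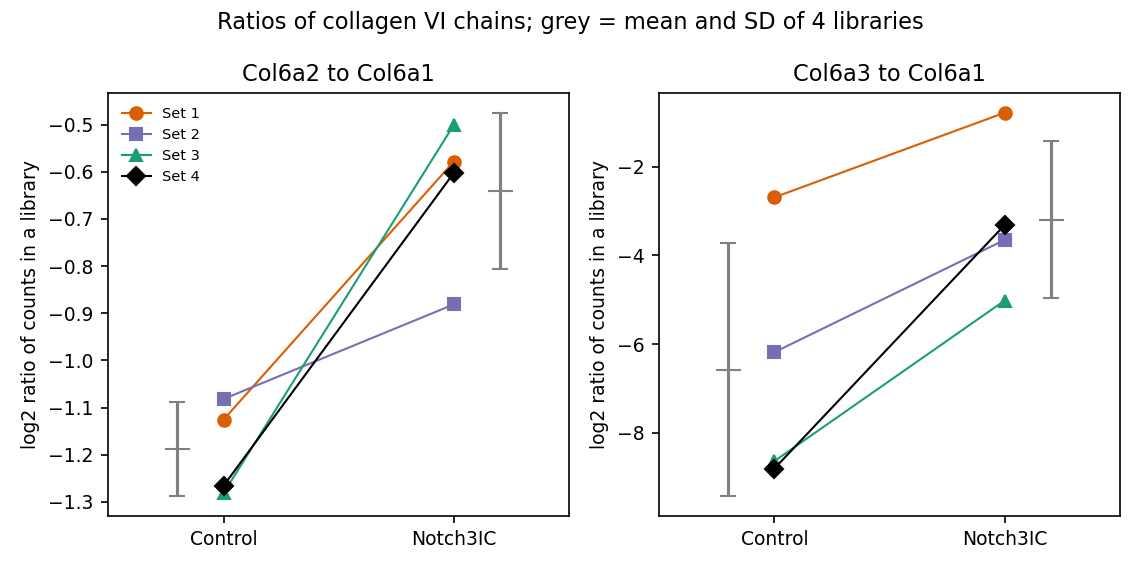
The log2 ratio of Col6a2 to Col6a1 counts (left) and of Col6a3 to Col6a1 counts (right) in each library, with a line per set and the mean and SD of 4 libraries in grey. Every Notch3IC library is above every Control library on the left, and on the right each set rises while Set 1 lies above the others in both groups.

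Per transcript length Col6a3 stayed the scarcest of the 3 chains in every library. CPM values (counts per 1000000 counts of the TMM-scaled library) were divided by the length of the longest coding transcript, 4100 bases for Col6a1, 4653 for Col6a2 and 10106 for Col6a3. On that scale Col6a3 made up 4.28%, 0.392%, 0.0737% and 0.0655% of the summed level of the 3 chains in Control Sets 1 to 4 and 12.9%, 2.13%, 0.764% and 2.51% in Notch3IC. Its share was higher in Notch3IC in every set, and the Control library of Set 1 was above the Notch3IC libraries of Sets 2, 3 and 4. Col6a2 stood at 0.404, 0.416, 0.362 and 0.366 per Col6a1 in Control and 0.590, 0.478, 0.623 and 0.580 in Notch3IC. With the union of annotated exons as length, chosen after seeing the data, 8326 bases for Col6a2 and 4380 for Col6a1, it stood lower, at 0.241, 0.249, 0.216 and 0.219 in Control and 0.352, 0.286, 0.372 and 0.346 in Notch3IC. A fixed length scales every library alike, so with either length the libraries keep the order of the count ratios. The 3 chains together took 0.0341%, 0.171%, 0.104% and 0.105% of all counts in Control and 0.180%, 0.189%, 0.409% and 0.347% in Notch3IC, so their share was higher in all 4 sets.

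The chains that can stand in for alpha3 were rare. Col6a5, which encodes the alpha5 chain, had 9, 90, 16 and 17 raw counts in Control and 50, 57, 119 and 114 in Notch3IC. Control Set 2 reached the level of the Notch3IC libraries, and the other 3 Control libraries were below all of them. It had a log2 fold change of 1.28 (standard error 0.75, edgeR adjusted p = 0.418). Leaving out Control Set 2 gave 2.76 with an edgeR adjusted p of 0.0301, and leaving out both Set 2 libraries gave 2.78 with 0.0108. With 9 counts, Control Set 1 was under the filter's limit, so here and with all 8 libraries Col6a5 passed only with its Notch3IC libraries. These 2 calls are a description and not support. Within Sets 1 to 4 the log2 ratios were 2.58, -0.36, 2.80 and 2.79. With the block the adjusted p was 0.107, and Col6a5 was not called.

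Col6a4, which encodes the alpha4 chain, had 4, 2, 2 and 5 raw counts in Control and 31, 1, 15 and 19 in Notch3IC. Set 2 again showed no rise, and the other 3 Notch3IC libraries were above all Control libraries. Counts of this size did not pass the filter with all 8 libraries. Without the Notch3IC library of Set 2 they did, and edgeR gave a log2 fold change of 2.73 (adjusted p = 0.0125). Without both Set 2 libraries it gave 2.65 (adjusted p = 0.0373). The Control libraries had at most 5 counts, so Col6a4 passed the filter there through its Notch3IC libraries. These values are a description and not support. Leaving out a single Control library, whichever it was, let Col6a4 into the test without a call (edgeR adjusted p from 0.161 to 0.301). DESeq2, whose own filter admits it, gave a log2 fold change of 2.40 and an adjusted p of 0.0533, and edgeR without the filter 2.38 and 0.137. Both genes lie on the minus strand of chromosome 9, Col6a5 at chr9:105856078-105960643 and Col6a4 at chr9:105989454-106096783, in a row with Col6a6. Of the 100-base windows of the Col6a5 transcript, 2.42% also occur in Col6a6, and Col6a6 had at most 1 count in any library. The annotation places 3.39% of the exon bases of Col6a4 over Gm47575 and Gm36993 on the opposite strand, and reads of such partners cannot be told apart if the counting ignored strand.

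Col14a1 rose from near absence, and the other fibril-associated genes and Col7a1 did not pass the test. Col14a1, at chr15:55307750-55520803 on the plus strand, encodes collagen XIV, a fibril-surface collagen that binds decorin and limits fibril diameter. Control Sets 1 to 4 had 3, 7, 7 and 8 raw counts of it, against 25, 30, 131 and 204 in Notch3IC. The groups did not overlap, and the Notch3IC libraries of Sets 1 and 2 were well below those of Sets 3 and 4. Its mean went from 6.09 ± 2.26 to 91.2 ± 67.5 normalized counts (SD, n = 4). Its fitted log2 fold change was 3.90 (standard error 0.66, 95% interval 2.39 to 5.40, edgeR adjusted p = 0.0250), with log2 ratios of 3.03, 2.33, 4.07 and 4.66 in Sets 1 to 4. Leaving out Control Set 3 or Control Set 4 raised the adjusted p to 0.104 and 0.105, and leaving out both libraries of Set 3 or of Set 4 raised it to 0.246 and 0.286, in fits that called 1 gene and 0 genes in all. Per length its Notch3IC mean, 0.605 ± 0.448 CPM per kilobase, was small beside the 41.8 ± 19.0 of Col12a1.

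Col12a1, at chr9:79598991-79718831 on the minus strand, encodes collagen XII, which bridges fibrils in tissues under load. It had 9642, 7443, 6433 and 5782 normalized counts in Control and 18225, 10025, 5970.0 and 10701 in Notch3IC. Set 1 was the highest in both groups, Set 3 was the lowest in Notch3IC, and the groups overlapped. Its log2 fold change of 0.62 had a 95% interval from -0.11 to 1.34 (edgeR adjusted p = 0.346), and with the block it was 0.53 (standard error 0.18, edgeR adjusted p = 0.104). Without the Notch3IC library of Set 1 it was 0.29, and without both Set 1 libraries 0.44.

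Col7a1, at chr9:108953586-108984875 on the plus strand, encodes the anchoring-fibril collagen. Control Sets 1 to 4 had 278, 82.4, 47.9 and 63.4 normalized counts of it, and Notch3IC had 518, 95.2, 54.3 and 141. Both Set 1 libraries were far above the rest of their group, and the groups overlapped. The log2 fold change of 0.78 had a standard error of 0.79 (edgeR adjusted p = 0.671). Leaving out Notch3IC Set 1 turned it to -0.27, leaving out Control Set 1 raised it to 1.65, and leaving out both gave 0.59. With the block it was 0.65 (standard error 0.21), with an edgeR adjusted p of 0.0841 that passed while the change stayed under the fold limit. Across the 8 libraries the log2 levels of Col7a1 and Col12a1 had a Pearson r of 0.91, with Set 1 at the high end of both, whereas Col6a1 and Col7a1 had -0.37.

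Col16a1, at chr4:130047840-130099283 on the plus strand, encodes collagen XVI, found with fibrils and fibrillin microfibrils. It had 933, 1177, 862 and 687 normalized counts in Control and 1166, 1287, 701 and 966 in Notch3IC. The groups overlapped throughout, and Set 3 was lower in Notch3IC while the other sets were higher. Its change of 0.17 on the log2 scale came with a 95% interval from -0.33 to 0.67 (edgeR adjusted p = 0.745). With the block the interval was -0.16 to 0.49.

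**Figure D3:**
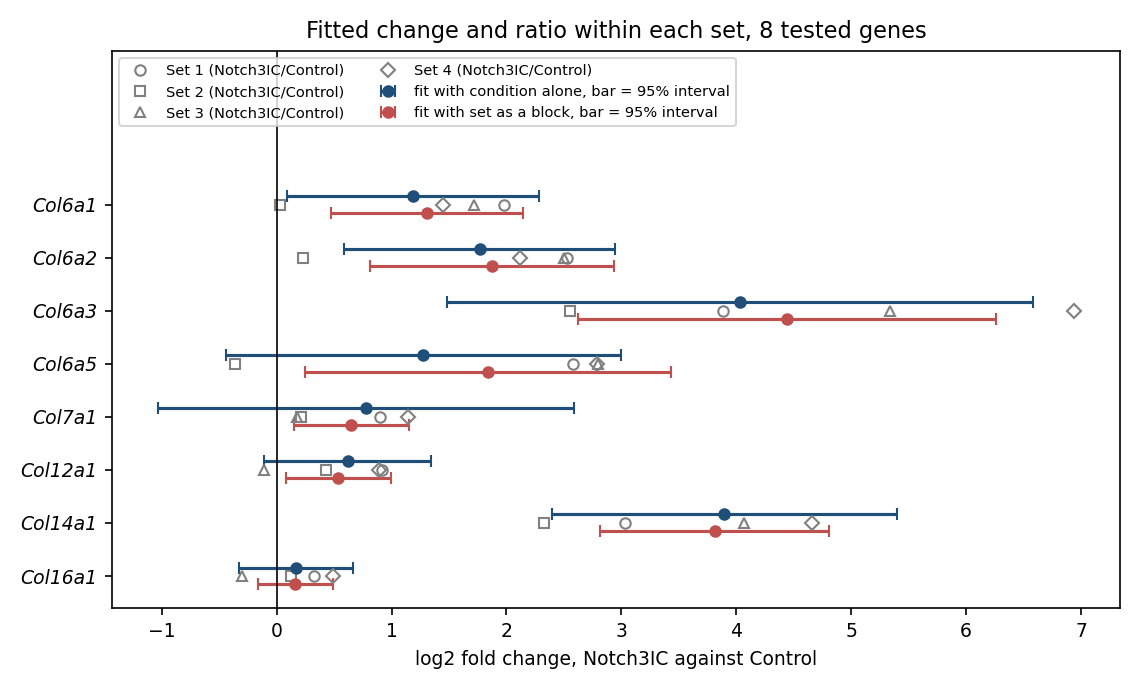
The log2 fold change of Notch3IC against Control for the 8 tested genes, fitted with condition alone (blue) and with the set as a block (red), with 95% intervals, and the ratio within each set (grey open symbols). Col6a3 and Col14a1 lie farthest from 0, Col16a1 lies nearest to it, and the square of Set 2 is the lowest symbol for all but Col7a1, Col12a1 and Col16a1.

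The 8 tested genes were compared within each set. Their median log2 ratio was 2.25, 0.22, 2.11 and 1.78 in Sets 1 to 4, beside medians of -0.01, 0.01, -0.01 and 0.00 over all genes tested. A log2 ratio of at least 1 was reached by 5, 2, 5 and 6 of the 8 genes, where 6.77%, 2.13%, 7.28% and 8.50% of all tested genes reached it. The 2 genes that reached it in Set 2 were Col6a3 and Col14a1. Col14a1 and Col6a5 passed the filter only with their Notch3IC libraries, so these counts and medians are a description and not support. Notch3 itself had log2 ratios of 6.79, 3.51, 7.01 and 7.10 in the same sets.

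On the per-length scale the order of the genes in Control was Col6a1 at 168 ± 89.2, Col6a2 at 65.4 ± 37.4, Col12a1 at 27.3 ± 6.29, Col16a1 at 7.53 ± 1.67 and Col6a3 at 1.32 ± 1.54 CPM per kilobase (SD, n = 4). Col7a1, at 0.546 ± 0.498, Col6a5, at 0.167 ± 0.219, Col14a1, at 0.0404 ± 0.0150, and Col6a4, at 0.0178 ± 0.0062, followed. The ranges over libraries overlapped between all neighbours in this order but Col12a1 with Col16a1 and Col16a1 with Col6a3. In Notch3IC Col6a1 averaged 384 ± 167 and Col6a2 223 ± 112 CPM per kilobase, and Col6a3, at 21.5 ± 20.2, stood above Col16a1, at 8.48 ± 2.11, in 3 of 4 libraries. Col14a1 moved ahead of Col6a5, at 0.398 ± 0.105, in the means, with the ranges overlapping.

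**Figure D4:**
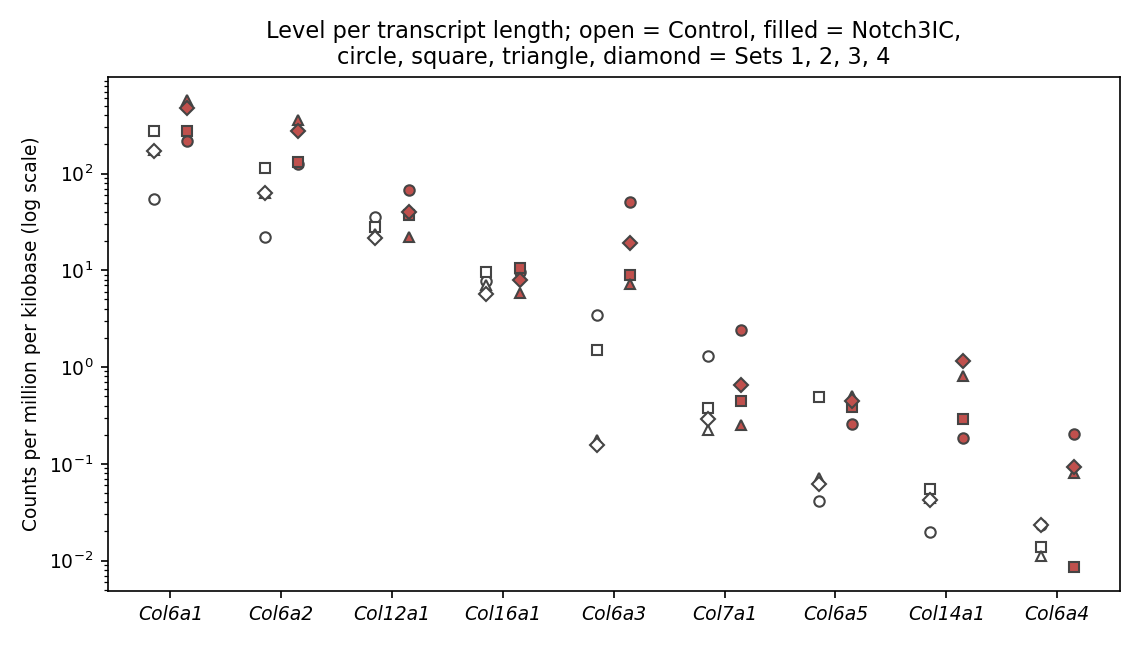
CPM per kilobase (log axis) of the 9 genes, ordered by the Control mean, with 1 symbol per library (open for Control, filled for Notch3IC, shape by set). Col6a1 and Col6a2 are the highest in mean, Col6a3 and Col14a1 show gaps between open and filled symbols, and Col16a1 does not.

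The genes around these collagens were read from lists. None of the 7 other collagen VI and fibril-associated chains, Col6a6, Col9a1, Col9a2, Col9a3, Col19a1, Col20a1 and Col22a1, passed the filter, and none had more than 9 counts in a library. Of 9 collagen receptors tested, 3 rose and none fell, beside 3.40% and 0.740% of all genes tested, with a median log2 fold change of 0.14. Cspg4 encodes the NG2 proteoglycan, a surface receptor for collagen VI, and had 36.7, 38.2, 13.4 and 15.1 normalized counts in Control Sets 1 to 4 and 618, 155, 399 and 705 in Notch3IC. Its groups did not overlap, and it rose by a log2 fold change of 4.20 (standard error 0.57, edgeR adjusted p = 0.0169). Itga1 and Itga11, alpha chains of collagen-binding integrins, had log2 fold changes of 3.86 and 3.47 (edgeR adjusted p = 0.0266 and 0.0497). Itgb1, the beta chain of both and the most abundant of the list, had 0.14 (edgeR adjusted p = 0.821). Ddr1, a collagen receptor kinase, was lower in Notch3IC in 4 of 4 sets, with -0.27 on the log2 scale (edgeR adjusted p = 0.398), and with the block its adjusted p of 0.0463 passed while the change stayed under the fold limit. Antxr1 of the same list was higher in 4 of 4 sets, with 0.82 (edgeR adjusted p = 0.181). With the block it also passed under the fold limit (edgeR adjusted p = 0.0687).

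Of 9 matrix partners tested, 3 rose and none fell, beside the same 3.40% and 0.740%, with a median of 0.66. Bgn encodes biglycan, a proteoglycan that binds collagen VI, and its log2 fold change was 1.69 (edgeR adjusted p = 0.0464), with means of 12334 ± 5097 and 39838.5 ± 14298 normalized counts. Fmod, for the fibril-binding fibromodulin, had a log2 fold change of 7.13 (edgeR adjusted p = 0.0151), from 51.3 ± 24.3 normalized counts. Tnc, for tenascin-C, had 2.36 (edgeR adjusted p = 0.0451). Fn1, for fibronectin, the most abundant of the list, had 1.09 and was not called (edgeR adjusted p = 0.134). Dcn, for decorin, which binds collagens VI and XIV, was lower in Notch3IC in 4 of 4 sets, with -0.47 on the log2 scale (edgeR adjusted p = 0.809). With the block it had -0.53 (edgeR adjusted p = 0.0275), under the fold limit. Fn1, Matn2 and Matn3, which were higher in Notch3IC, also passed with the block under the fold limit (edgeR adjusted p = 0.0584, 0.0760 and 0.0554).

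Of 9 partners of collagen VII tested, Bmp1, which encodes a protease that cleaves procollagen VII and fibrillar procollagens, was the 1 that rose (log2 fold change 1.60, edgeR adjusted p = 0.0359), and the median was -0.03. With the block Col4a1 and Col4a2, the common basement membrane chains, were called too (1.58 and 1.21 on the log2 scale, edgeR adjusted p = 0.0543 and 0.0684). Col4a1 was the most abundant of the list over the 8 libraries, though Plec was above it in the Control mean. Of 9 fibrillar collagens tested, on whose fibrils collagens XII and XIV lie, Col3a1 (1.30, edgeR adjusted p = 0.0818) and Col5a3 (4.46, edgeR adjusted p = 0.0382) rose on the log2 scale, with a median of 1.01, and 6 were called with the block, Col1a1, Col1a2, Col5a1 and Col27a1 beside these. Among all genes 3.40% were called higher with condition alone and 5.19% with the block. Col1a1, the most abundant, had 1.01 (edgeR adjusted p = 0.166) and 1.04 with the block (edgeR adjusted p = 0.0386). None of 9 genes for chain hydroxylation and folding was called, with a median of 0.26. P4ha3, for a prolyl hydroxylase subunit, and Plod1, for a lysyl hydroxylase, had adjusted p values under 0.1 (0.95 and 0.63 on the log2 scale, edgeR adjusted p = 0.0556 and 0.0846) and missed the fold limit. P4hb, the most abundant, had -0.03 (edgeR adjusted p = 0.944).

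**Figure D5:**
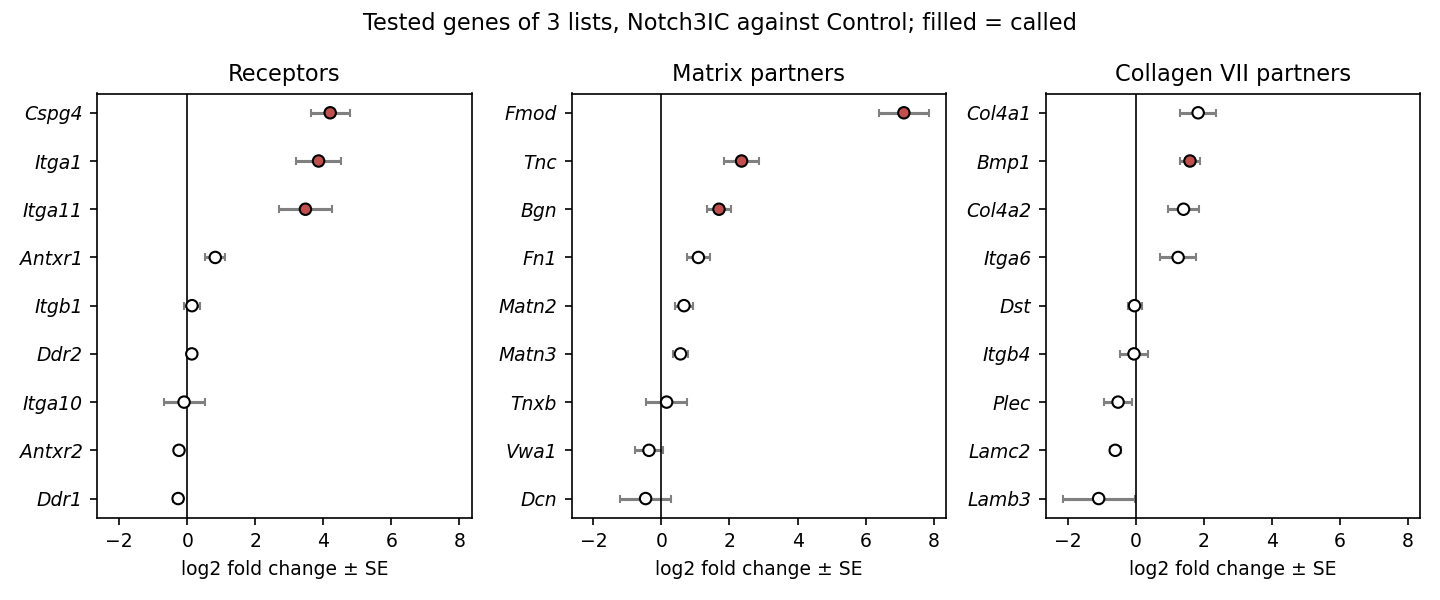
The log2 fold change, Notch3IC against Control, with its standard error for the tested collagen receptors, matrix partners and collagen VII partners, filled where called. Cspg4, Itga1, Itga11, Fmod, Tnc, Bgn and Bmp1 are filled, and no gene on the left of 0 is.

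The genes most like the 2 called collagens were sought among 11033 tested genes with a mean of at least 50 normalized counts, by Pearson r of log2 levels over the 8 libraries. For Col6a3 they were Arhgef40 (0.996), En1 (0.991) and Ubtd1 (0.988), and for Col14a1 Emp2 (0.990), Rnf24 (0.988) and Pmp22 (0.987). An r above 0.9 was reached by 257 and 279 genes, so these neighbours are a description of 8 libraries that share 2 conditions.

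Markers of cell types moved with the condition as well. In bulk RNA, fewer cells of a type and less RNA per cell cannot be told apart. The summed level of 10 markers of ovarian surface epithelium and mesothelium was 1041, 1868, 2957 and 2847 CPM in Control Sets 1 to 4 and 313, 1186, 1066 and 814 in Notch3IC, lower in every set. Upk3b was the most abundant over the 8 libraries, though Wt1 was above it in the Notch3IC mean. Msln and Upk1b of 8 tested were called lower, beside 0.740% of all genes, and the median log2 fold change was -1.26. With the block Krt19 (-2.10, edgeR adjusted p = 0.0288) and Upk3b (-1.98, edgeR adjusted p = 0.0319) were called too, 4 of 8 beside 2.53% of all genes. Krt7 and Epcam, defining keratin and adhesion markers, had at most 46 and 12 counts. For 7 fibroblast markers the sum was 162, 697, 555 and 474 CPM in Control and 336, 634, 981 and 1061 in Notch3IC, higher in Sets 1, 3 and 4 and lower in Set 2, the set in which Col6a1 and Col6a2 moved least. Pdgfrb and Fap of 5 tested were called higher, beside 3.40% of all genes, and Fap passed the filter through its Notch3IC libraries. Dcn was lower in 4 of 4 sets without a call. Pdgfra was the most abundant over the 8 libraries, though Dcn was above it in the Control mean, and Thy1 and Lum had at most 2 and 4 counts. The part of either marker group in the collagen values was not tested. The 5 leukocyte markers summed to between 0.340 and 1.92 CPM, with Ptprc, Cd3e and Emr1 at 3 counts or fewer everywhere. Csf1r, at most 36 counts in a library, was the most abundant and was called higher, beside 3.40% of all genes. It passed the filter through its Notch3IC libraries. Endothelial markers summed to between 0.544 and 2.16 CPM, with Pecam1 the most abundant and Cdh5, Tek and Tie1 at 3 counts or fewer.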

How the data were processed

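Poly(A) RNA from 4 Control and 4 Notch3IC lines was sequenced as single-end reads. The authors deposited raw counts per symbol, in a table for each library, without normalization. The submitters' processing notes name TopHat, Cufflinks, DESeq and the build mm9. Versions, annotation and strandedness are not given in the sources used here. Gene positions, transcript lengths and overlaps are from GENCODE M21 on GRCm38 and promoter windows from RefSeq, so no coordinate comes from the counted build.

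Notch3IC was compared with Control with edgeR 4.0.16 (TMM, filterByExpr by condition, robust quasi-likelihood fit, condition as the only term) in R 4.3.3. Calls needed an adjusted p under 0.1 (Benjamini-Hochberg over 12430 genes) with a change of at least 1 on the log2 scale, the study's limits. Standard errors are the log2 fold change divided by the root of F. Ratios within a set used a pseudocount of 0.5 and have no test. Chain ratios were compared by exact two-sided permutation over libraries, with a limit of 0.05 on the adjusted p.

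The study describes each set as a matched pair, and deviations from the group means correlated across genes at 0.79, 0.41, 0.57 and 0.43 within Sets 1 to 4. Crossed pairs gave -0.51 to 0.40. The block values stand beside the main ones where they changed a call of a gene named here. The coefficient of variation was 26.3% with condition alone and 14.1% with the block. The genes and lists were chosen with earlier results of these data known. All 9 genes, each list gene called and the most abundant gene of each list are named. Dcn, Ddr1, Antxr1, Matn2, Matn3, Plec, Col4a2, P4ha3, Plod1, 3 fibrillar collagens and some marker genes were named after their values were seen. Colgalt1, Colgalt2 and Adgre1 were counted under older symbols. One gene of the leukocyte list is not reported here and was left out of its sum. The alternatives were DESeq2 1.42.0, other normalizations, filters and thresholds, the block and leaving out libraries or sets. Plots used Python 3.11.15 and Matplotlib 3.10.9.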

Additional observations from a re-analysis of the deposited data

Results flagged for a closer look

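In each group of 4 libraries, the highest and the lowest library were compared with the other 3 for 26 groups of values, and in 2 of them the gap, relative to the whole range, was above Dixon's 95% critical value. Chance gives about 1 in 20, or 1.3 here. The Control library of Set 2 had 107 normalized counts of Col6a5, far above the 8.92 to 15.3 of the other Control libraries. The Control library of Set 1 had 278 normalized counts of Col7a1, far above the 47.9 to 82.4 of the others.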

How the results depend on the processing

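The direction of all 8 tested genes held under every alternative, except that Col7a1 was at -0.27 without the Notch3IC library of Set 1. The counts of calls held less well. Col14a1 and Col6a3 were called with RLE, upper-quartile or total-count scaling and without the fold limit, and Col6a2 joined them without the expression filter. DESeq2 called 5 of the 9 genes (Col6a1, Col6a2 and Col6a4 beside these), with 707 higher and 192 lower among all genes. The replicate block called 4, with 645 higher and 315 lower over all genes, of which 418 higher genes were also called without it, and it changed no other call among the 9. At an adjusted p under 0.05 only Col14a1 was called (1 gene), with 290 genes higher and 48 lower in all, and without the fold limit 210 genes were lower. With at least 10 counts in every library 0 were called by edgeR, where 301 genes were higher in all, with 6 tested and 3 at an unadjusted p under 0.05, and Col14a1 was not tested there. With a library or a set left out, 0 to 4 of the genes were called higher, 0 to 702 of all genes higher and 0 to 305 lower. Without Set 2 these were 670 and 229, without Set 1 151 were lower, and without the Control library of Set 3 75 were higher. Col7a1 was at 1.65 without the Control library of Set 1. None of the collagens was called by edgeR without Set 3 or Set 4 (3 at an unadjusted p under 0.05 in each, in fits that called 1 gene and 0 genes in all) or without the Control library of Set 3 or Set 4 (4 in each), and 4 were called without Set 2. The chain differences ranged over the left-out libraries and sets from 0.47 to 0.66 for Col6a2 to Col6a1 (0.50 to 0.63 with single libraries left out), from 2.58 to 4.68 for Col6a3 to Col6a1 and from 2.06 to 4.12 for Col6a3 to Col6a2. Paired by set (replicate block), all 3 gave an exact permutation p of 0.125, the smallest that 4 pairs allow. The union of exons as length, chosen after seeing the data, gave a mean per-kilobase ratio of Col6a3 to Col6a1 of 0.0158 in Control and 0.0724 in Notch3IC, beside 0.0176 and 0.0803 with the longest transcript. Set 1 carried these means, which were 0.0025 and 0.0285 without it on the longest transcript, also chosen after seeing the data. The causes of these shifts were not tested. Depth limits Col6a4, and Col14a1 in Control, where a few reads set the value.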
